A study of Mus musculus with 12 samples.

Results

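Between the dividing oligodendrocyte progenitor and the myelinating cell lies a short stage of committed precursors and newly formed oligodendrocytes, and 8 genes commonly used to mark it were followed here in mouse cortex: Gpr17, Enpp6, Bcas1, Itpr2, Fyn, Bmp4, Neu4 and Tcf7l2. They were picked by symbol, each had 1 row in the table of 23354 gene symbols, and all 8 were among the 14075 symbols tested, which had a mean of at least 0.5 FPKM (fragments per length of transcript and per depth of the library) over the 12 libraries. The lowest value of any of the 8 genes in any library was 1.06 FPKM, so none passed that minimum through 1 group alone. RNA-seq libraries were made from polyA RNA of cortices dissected at postnatal day 16 from C57BL/6 mice, with 3 mice in each of 4 groups. Dnmt1 CKO mice were Olig1cre/+;Dnmt1flox/flox and their littermate controls Olig1+/+;Dnmt1flox/flox, while Dnmt3a CKO mice were Olig1cre/+;Dnmt3aflox/flox and their littermate controls Olig1+/+;Dnmt3aflox/flox. Every mouse thus carried floxed alleles, and the cre sits in the Olig1 locus, so each CKO mouse also had 1 Olig1 allele that carries cre. Within a line, the loss of the methyltransferase and the cre-bearing Olig1 allele cannot be told apart.

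Oligodendrocytes arise from progenitors that leave the cell cycle, pass through a premyelinating stage in which they extend many processes, and then either wrap axons or die. The markers of that stage are switched on as cells commit, and several of them, Gpr17 most clearly, fall again as myelin genes come on. Dnmt1 copies CG methylation onto newly made DNA strands and Dnmt3a places methylation at sites that lacked it, and the comparison of each CKO with its controls asks what the loss of either enzyme in Olig1-expressing cells does to transcript levels. In whole cortex, fewer cells of a type and less RNA per cell cannot be told apart.

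Because the deleted enzymes act on CG dinucleotides, sequence upstream of a RefSeq transcription start (GRCm38.p6) is shown for 3 of the genes that were lower in Dnmt1 CKO and for Tcf7l2, which did not pass the test, with CG in capitals, read 5′ to 3′ on the strand of the gene and without any base of an annotated exon. Methylation was not measured in these samples.
Enpp6, chr8:46986637-46986886, plus strand: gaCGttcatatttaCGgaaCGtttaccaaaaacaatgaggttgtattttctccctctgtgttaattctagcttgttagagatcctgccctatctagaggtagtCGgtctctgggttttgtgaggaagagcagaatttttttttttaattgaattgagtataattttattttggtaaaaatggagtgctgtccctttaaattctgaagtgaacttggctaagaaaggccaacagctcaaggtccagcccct
Neu4, chr1:94020243-94020450, plus strand: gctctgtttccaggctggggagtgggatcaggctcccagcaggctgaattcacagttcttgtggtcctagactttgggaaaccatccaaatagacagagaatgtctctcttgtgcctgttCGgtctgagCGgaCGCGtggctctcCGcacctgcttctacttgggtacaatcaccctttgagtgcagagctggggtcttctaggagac
Bmp4, chr14:46390670-46390919, minus strand: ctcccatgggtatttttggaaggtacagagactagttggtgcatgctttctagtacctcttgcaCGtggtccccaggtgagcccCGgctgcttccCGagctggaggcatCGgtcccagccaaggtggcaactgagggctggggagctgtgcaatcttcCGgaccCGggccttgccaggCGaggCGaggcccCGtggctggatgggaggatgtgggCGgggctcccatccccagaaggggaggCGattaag
Tcf7l2, chr19:55741560-55741809, plus strand: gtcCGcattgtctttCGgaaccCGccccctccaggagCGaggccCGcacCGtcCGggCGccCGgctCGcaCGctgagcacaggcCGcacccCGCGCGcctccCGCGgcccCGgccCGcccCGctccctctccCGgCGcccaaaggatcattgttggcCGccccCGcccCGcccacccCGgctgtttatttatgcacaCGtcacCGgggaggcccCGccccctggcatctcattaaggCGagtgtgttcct
CG was sparse upstream of Enpp6 and Neu4, with 4 and 5 in the 250 bases before the start, and denser upstream of Bmp4 with 11 and of the Tcf7l2 start shown with 30. A second Tcf7l2 start, whose window is chr19:55895071-55895320, had 7. Over 32851 RefSeq windows of this length, the median was 6 and the quartiles were 2 and 16. As many CG or more were found in 62.2% of all windows for Enpp6, in 55.6% for Neu4, in 35.6% for Bmp4, and in 5.94% and 46.3% for the first and the second Tcf7l2 start. Itpr2 and Fyn, which did not pass the test either, held 22 and 21. These counts describe the letters of the reference, and with 6 genes matched in the RefSeq table no relation to the expression change was tested.

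The labels were first checked on the targeted genes. Dnmt1 stood between 9.78 and 10.6 FPKM in Dnmt1 control and between 7.26 and 9.11 FPKM in Dnmt1 CKO libraries. Dnmt3a was at 31.1 and 28.7 FPKM in Dnmt3a control replicates 1 and 3 and between 13.6 and 15.4 FPKM in Dnmt3a CKO. The library labelled Dnmt3a control replicate 2 held 16.9 FPKM, close to the CKO libraries, so results of that line are given with and without it. Its level of Olig1, the gene that carries cre, was 49.8 FPKM, near Dnmt3a control replicates 1 and 3 (48.4 and 44.1 FPKM). Olig1 was lower in the Dnmt3a CKO libraries, at 30.6, 38.8 and 32.2 FPKM. The genotype of that control library was not tested. Neuronal genes were present in all libraries, with a summed level of 10 neuron markers between 2638 and 2953 FPKM, which is not a test of the region dissected. Xist was high and the Y-linked Ddx3y near 0 in 3 libraries, replicate 3 of Dnmt1 control, Dnmt3a control and Dnmt3a CKO, and in none of the Dnmt1 CKO libraries. The Dnmt1 CKO libraries held Ddx3y at 11.1, 10.8 and 10.2 FPKM, but also Xist at 1.69, 1.8 and 1.85 FPKM. In the remaining libraries, which had high Ddx3y as well, Xist was between 0.0306 and 0.0853 FPKM. The cause of this difference was not tested. Read counts were not used here and the depth behind a value is unknown, but the steps between low values put the libraries at 0.857 to 1 of the depth of the deepest.

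Transcripts of the committed stage were lower in Dnmt1 CKO cortex. Of the 8 markers, 5 fell at 10% FDR (Bcas1, Enpp6, Neu4, Gpr17 and Bmp4), and their CKO means were between 58.7% and 72% of the control means. The other 3, Itpr2, Tcf7l2 and Fyn, had lower means as well but did not pass. Among all 14115 rows tested, 2.3% were called lower (limma on log2(FPKM + 0.1), Benjamini-Hochberg adjusted). The median log2 fold change of the 8 genes was -0.51, beside -0.02 over all rows. For 7 of the 8 genes, all but Fyn, every Dnmt1 CKO value was below every Dnmt1 control value, which held for 14.4% of all rows. For 6 of them, all but Fyn and Tcf7l2, the Dnmt1 CKO values were also below those of the other 9 libraries, which held for 5.46% of all rows.

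**Figure D1:**
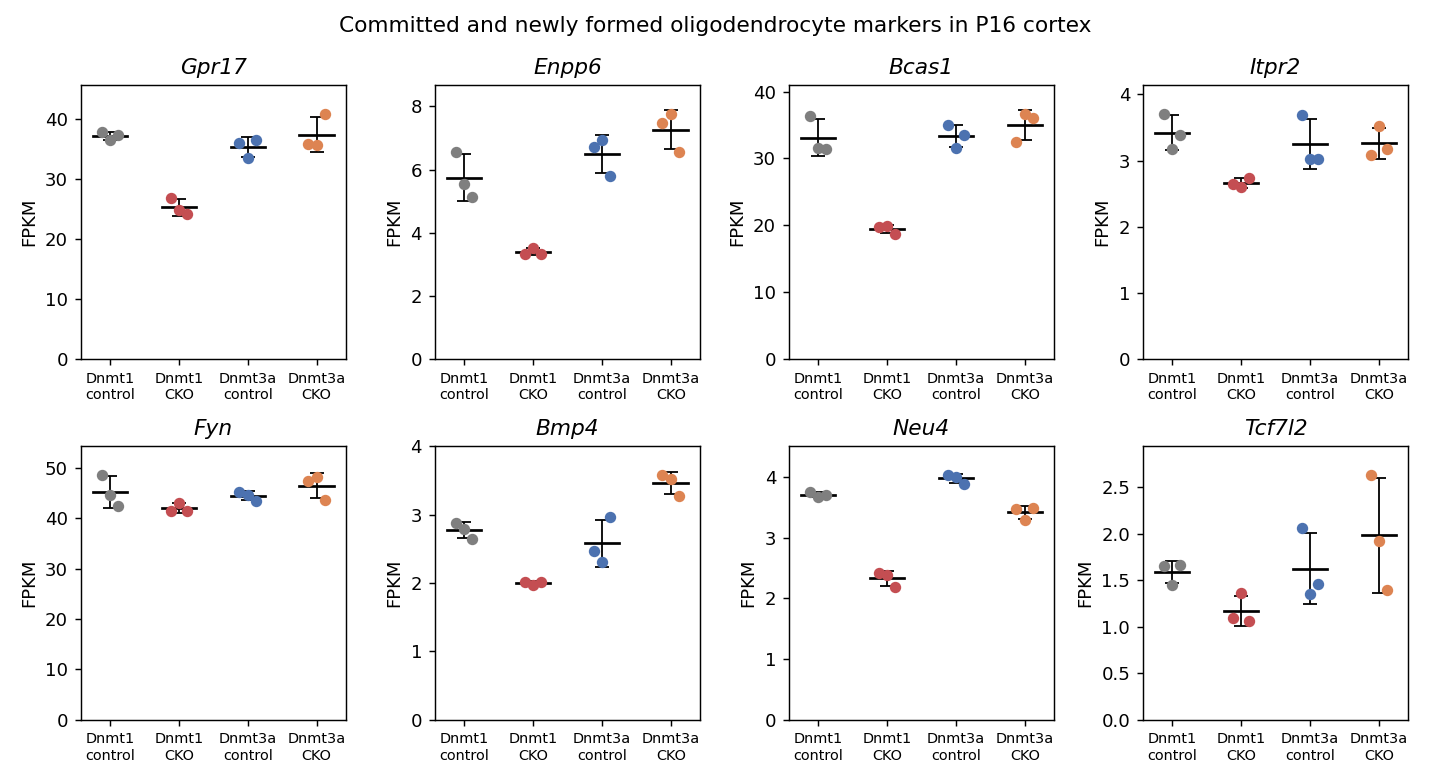
FPKM of the 8 markers (vertical axes from 0) in each of the 12 libraries, by group; points are mice, the horizontal bar is the mean and the whiskers are the SD, n = 3. Dnmt1 CKO points lie below all others for Gpr17, Enpp6, Bcas1, Itpr2, Bmp4 and Neu4, and reach the range of other groups for Fyn and Tcf7l2.

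Gpr17 encodes an orphan G protein-coupled receptor that appears in committed precursors and is turned down as cells mature. The gene lies on chromosome 18 of GRCm38 from 31942997 to 31949636, on the minus strand, with 2 exons. Its values were 37.8, 36.4 and 37.2 FPKM in Dnmt1 control and 26.8, 24.8 and 24.1 FPKM in Dnmt1 CKO mice. The groups were far apart compared with their spread, at 37.2 ± 0.692 and 25.2 ± 1.4 FPKM (SD, n = 3). This was a log2 fold change of -0.56 (SE 0.0447, limma adjusted p = 0.0046), with a 95% interval from -0.67 to -0.45. Of its exon bases, 3.62% lie within exons of Lims2 on the opposite strand, and as strandedness of the libraries is not stated, reads from that stretch could come from either gene. Lims2 itself did not pass the test (5.92 and 6.81 FPKM, log2 fold change 0.20, limma adjusted p = 0.22).

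Enpp6 makes a choline-specific phosphodiesterase of the cell surface and is among the sharpest markers of oligodendrocytes that have just begun to differentiate. It spans 46986887 to 47096762 on the plus strand of chromosome 8, in 8 exons. Dnmt1 control mice had 6.57, 5.54 and 5.12 FPKM, and Dnmt1 CKO mice 3.34, 3.53 and 3.32 FPKM. The CKO values were nearly equal to each other, and the spread of the comparison came mostly from the controls (5.74 ± 0.748 against 3.4 ± 0.114 FPKM, SD, n = 3). The log2 fold change was -0.73 (SE 0.0992, limma adjusted p = 0.027). Without Dnmt1 control replicate 2, Dnmt1 CKO replicate 1 or Dnmt1 CKO replicate 3, the adjusted p was 0.11, 0.12 and 0.12, with a log2 fold change of -0.76, -0.72 and -0.72.

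Bcas1 encodes a protein of early myelinating oligodendrocytes and is used as a label of cells in the act of making myelin. It is located on chromosome 2, from 170346991 to 170427845 on the minus strand, with 12 exons in the longest transcript. Control mice of the Dnmt1 line had 36.3, 31.6 and 31.4 FPKM, and CKO mice 19.7, 19.9 and 18.7 FPKM. No CKO library came near the lowest control, and the means were 33.1 ± 2.78 and 19.4 ± 0.676 FPKM (SD, n = 3). The log2 fold change was -0.76 (SE 0.0646, limma adjusted p = 0.0051). Antisense transcripts Bcas1os1 and Bcas1os2 share 12.6% of its exon bases, and reads from there could not be assigned by strand.

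Neu4 is a sialidase, an enzyme that trims sialic acid from glycoproteins and glycolipids. The gene runs from 94020451 to 94028334 on the plus strand of chromosome 1, in 4 exons. Its levels were tight in both groups, with 3.75, 3.67 and 3.7 FPKM in Dnmt1 control and 2.41, 2.38 and 2.19 FPKM in Dnmt1 CKO mice. Neu4 thereby fell to 62.8% of the control mean (log2 fold change -0.65, SE 0.0621, limma adjusted p = 0.0072).

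Bmp4 is the secreted ligand of the set. It signals through BMP receptors and Smad proteins, and in culture it turns progenitors away from the oligodendrocyte fate and toward astrocytes. It occupies 46383520 to 46390669 on the minus strand of chromosome 14, in 4 exons, of which 3.96% of the bases overlap exons of Gm15217. Values were 2.88, 2.79 and 2.65 FPKM in Dnmt1 control and 2.02, 1.97 and 2.01 FPKM in Dnmt1 CKO mice. The CKO values were almost the same in the 3 mice (2 ± 0.0239 FPKM, SD). The fall was -0.45 on the log2 scale (SE 0.0609, limma adjusted p = 0.026). It did not hold at 10% FDR without Dnmt1 control replicate 2, Dnmt1 CKO replicate 1, 2 or 3 (adjusted p = 0.13, 0.12, 0.11 and 0.12), while the log2 fold change was then -0.45, -0.46, -0.44 and -0.46.

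Itpr2, the type 2 receptor for inositol trisphosphate and a calcium channel of the endoplasmic reticulum, is also strong in astrocytes. It is found on chromosome 6 from 146108299 to 146502223, on the minus strand. Dnmt1 control mice had 3.7, 3.18 and 3.38 FPKM and Dnmt1 CKO mice 2.65, 2.6 and 2.74 FPKM, so the groups did not overlap. The log2 fold change of -0.35 (SE 0.0735) did not pass 10% FDR (limma adjusted p = 0.11, unadjusted p = 0.0034). It did pass with a pseudocount of 1, a minimum mean of 1 FPKM, no variance trend or all 12 libraries in 1 model, at adjusted p = 0.093, 0.096, 0.076 and 0.062.

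Tcf7l2 is a transcription factor of the Wnt pathway that is needed for oligodendrocytes to mature, and in the forebrain it is also made by thalamic neurons. It was the least abundant of the set, with a mean of 1.59 FPKM over the 12 libraries, and its gene occupies bases 55741820 to 55933654 of chromosome 19 (plus strand). Its values were 1.65, 1.45 and 1.66 FPKM in Dnmt1 control and 1.09, 1.36 and 1.06 FPKM in Dnmt1 CKO mice. The log2 fold change was -0.41 with a wide 95% interval, from -0.70 to -0.13 (limma adjusted p = 0.19, unadjusted p = 0.012).

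Fyn, a Src family kinase that links axonal contact to process outgrowth and local Mbp translation, was the most abundant of the set and is shared with neurons. It spans 39368855 to 39565381 on the plus strand of chromosome 10. Levels of 48.6, 44.7 and 42.4 FPKM in Dnmt1 control overlapped those of 41.4, 43.1 and 41.5 FPKM in Dnmt1 CKO mice. The log2 fold change was -0.11, with an interval from -0.24 to 0.03 (limma adjusted p = 0.44).

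**Figure D2:**
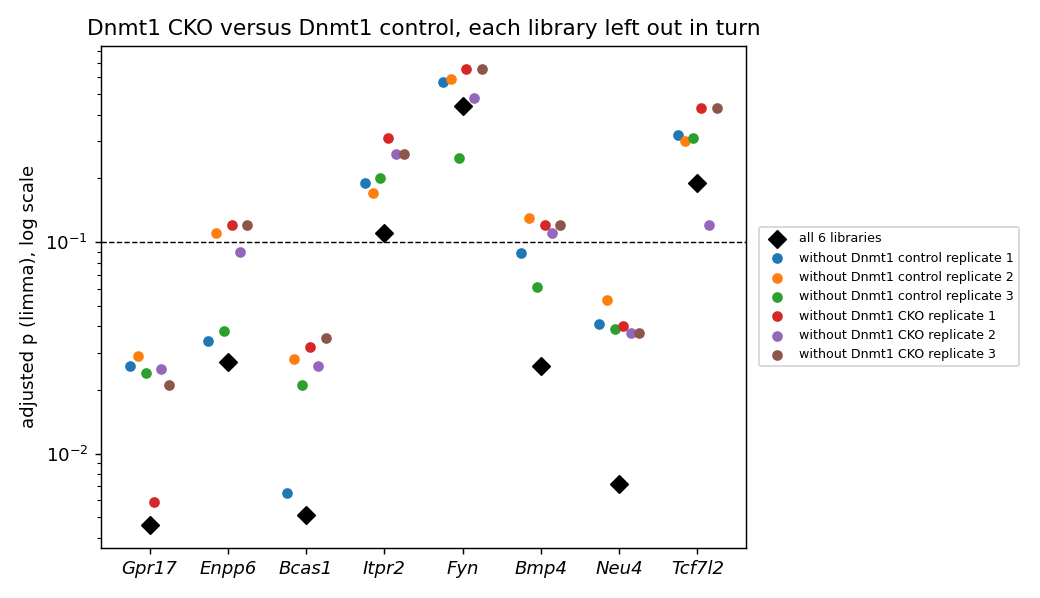
Adjusted p (limma, log axis) of each marker in the Dnmt1 line with all 6 libraries (black diamonds) and with each library left out (coloured points); the dashed line is 10% FDR. Gpr17, Bcas1 and Neu4 stay below the line in all 6 fits, Enpp6 and Bmp4 cross it in some, and Itpr2, Fyn and Tcf7l2 lie above it throughout.

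None of the 8 markers passed the test in the Dnmt3a line. The median log2 fold change was 0.07, beside 0.01 over all rows, and 7 of the 8 genes had higher and 1 had a lower mean in Dnmt3a CKO. In that comparison 0.0142% of all rows were called in either direction by limma, 2 rows of 14115. At an unadjusted p under 0.05 there were 2 markers, Bmp4 and Neu4, and 1037 rows in all. Without the library labelled Dnmt3a control replicate 2, 0 of the 8 markers passed as well, and their median was 0.05.

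Bmp4 and Neu4 were also the 2 markers whose Dnmt3a groups did not overlap, in opposite directions; 12.8% of all rows were without overlap in either direction. For Bmp4, the controls had 2.47, 2.31 and 2.97 FPKM and the Dnmt3a CKO mice 3.58, 3.52 and 3.28 FPKM. All 3 CKO values were above the highest of the other 9 libraries, but the share of all rows for which this held was not counted. The CKO mean was 134% of the control mean (log2 fold change 0.42, 95% interval 0.15 to 0.68, limma adjusted p = 0.66). For Neu4, the controls had 4.03, 4 and 3.89 FPKM and the Dnmt3a CKO mice 3.47, 3.29 and 3.48 FPKM. This was 86% of the control mean (log2 fold change -0.21, 95% interval -0.35 to -0.07, limma adjusted p = 0.66). Leaving out Dnmt3a control replicate 2 gave 0.34 for Bmp4 and -0.21 for Neu4.

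The receptor, the phosphodiesterase and the early myelin protein did not pass the test in the Dnmt3a line. Gpr17 was at 35.9, 33.4 and 36.5 FPKM in controls and 35.7, 35.6 and 40.7 FPKM in CKO mice (log2 fold change 0.08, interval -0.08 to 0.24). Enpp6 was at 6.71, 6.94 and 5.81 FPKM in controls and 7.47, 7.75 and 6.57 FPKM in CKO mice (0.16, interval -0.07 to 0.39). For Bcas1 the values were 35, 31.6 and 33.5 FPKM and 32.5, 36.6 and 36 FPKM (0.07, interval -0.08 to 0.21). In each of these genes the CKO and control values overlapped, and the intervals leave room for small changes in either direction. Without Dnmt3a control replicate 2, the log2 fold changes were 0.04 for Gpr17, 0.21 for Enpp6 and 0.03 for Bcas1.

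Itpr2 and Fyn, the calcium channel and the kinase, overlapped too, with log2 fold changes of 0.01 (interval -0.25 to 0.26) and 0.06 (interval -0.05 to 0.17). That of Itpr2 changed sign without Dnmt3a control replicate 2, to -0.04, and that of Fyn was then 0.07. Tcf7l2 was the most variable, with 2.06, 1.35 and 1.46 FPKM in Dnmt3a control and 2.63, 1.92 and 1.4 FPKM in Dnmt3a CKO mice (log2 fold change 0.25, or 0.14 without Dnmt3a control replicate 2). Dnmt3a CKO replicate 1, the highest of these, also had the highest level of the thalamic marker Prkcd, 10.6 FPKM against 3.27 to 4.82 FPKM in the other libraries, and the highest sum of 8 thalamic neuron markers, 42.1 FPKM against 25.1 to 31.7 FPKM. Dnmt3a control replicate 1, the next highest in Tcf7l2, had the second highest sum, 31.7 FPKM, with Prkcd at 4.38 FPKM. Dnmt3a CKO replicate 2, which followed in Tcf7l2 at 1.92 FPKM, had a sum of only 28 FPKM. Dnmt1 control replicate 1, with Tcf7l2 at 1.65 FPKM, had a sum of 31.4 FPKM. Of the 5 thalamic markers that were tested, 0 passed limma's test in the Dnmt3a line (0 at an unadjusted p under 0.05) and 0 in the Dnmt1 line (1), and their part in the Tcf7l2 values was not tested.

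The CKO effect itself differed between the lines for 5 of the 8 markers, Enpp6, Bmp4, Bcas1, Gpr17 and Neu4. The difference was tested as the Dnmt1 effect minus the Dnmt3a effect over all 12 libraries, where 1.83% of all rows were called lower. It was -0.90 for Enpp6 (SE 0.137, limma adjusted p = 0.0065), -0.87 for Bmp4 (SE 0.118, limma adjusted p = 0.0029) and -0.83 for Bcas1 (SE 0.0934, limma adjusted p = 0.0008). For Gpr17 it was -0.64 (SE 0.0836, limma adjusted p = 0.0022), and for Neu4, which was lower in both CKO groups, -0.44 (SE 0.0727, limma adjusted p = 0.011). In Bmp4, the means moved apart in opposite directions, to 72% of control in Dnmt1 CKO and 134% in Dnmt3a CKO. Itpr2 (-0.36), Tcf7l2 (-0.66) and Fyn (-0.17) did not pass, with limma adjusted p of 0.29, 0.46 and 0.46. The same 5 genes were called when any of the 12 libraries was left out.

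**Figure D3:**
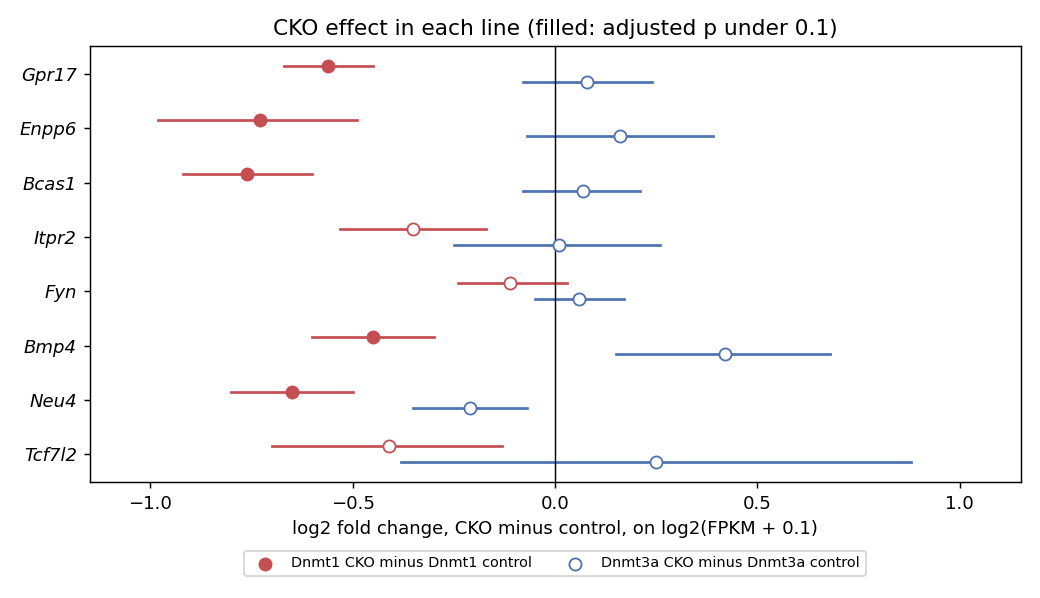
Log2 fold change (CKO minus control, on log2(FPKM + 0.1)) of each marker in the Dnmt1 line (red) and the Dnmt3a line (blue), with 95% intervals from limma, n = 3 per group; filled points have an adjusted p under 0.1. The 5 filled points, at -0.45 to -0.76, are all in the Dnmt1 line, and the Dnmt3a estimates lie from -0.21 to 0.42.

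Between the control groups, 0 of the 8 markers passed limma's test, and 0 had an unadjusted p under 0.05. The log2 differences, Dnmt3a control minus Dnmt1 control, ranged from -0.11 for Bmp4 to 0.18 for Enpp6, and 0% of all rows were called (1154 rows at an unadjusted p under 0.05). The controls were less alike in 19 tested markers of myelinating cells, of which limma called 0 but 18 had an unadjusted p under 0.05. Of these, 0 were lower in Dnmt3a control, and their median log2 difference was 0.33. Summed over the 20 listed myelinating markers, Dnmt3a control replicates 1 to 3 had 2787, 3106 and 2610 FPKM, and Dnmt1 control libraries 2060 to 2382 FPKM. The highest sum was thus in Dnmt3a control replicate 2, and the median and count for this list were not obtained without it. Ordered by their means, Dnmt1 CKO was the lowest of the 4 groups for all 8 genes, and its values overlapped those of Dnmt1 control in Fyn and of Dnmt3a control in Tcf7l2. The other 3 groups overlapped with their neighbours in this order for Gpr17, Enpp6, Bcas1, Itpr2, Fyn and Tcf7l2. For Bmp4, Dnmt3a CKO was above and apart from both control groups. In Neu4 none of the 4 groups overlapped, and from the lowest to the highest they were Dnmt1 CKO, Dnmt3a CKO, Dnmt1 control and Dnmt3a control. How often groups were separate in these ways over all rows was not counted.

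A wider list of 13 tested markers of the same stage gave 8 that fell and 0 that rose in Dnmt1 CKO, with a median log2 fold change of -0.39. Of all 14115 rows, 2.3% were called lower. The list was chosen with earlier results of these data known, so it is not independent support. Casr, the calcium-sensing receptor, went from 0.988 to 0.278 FPKM (-1.52, limma adjusted p = 0.0066), and the transcript 9630013A20Rik from 8.47 to 3.63 FPKM (-1.19, limma adjusted p = 0.0058). Kif19a, a kinesin, and Cnksr3, a scaffold protein, fell by 0.98 and 0.89 on the log2 scale (limma adjusted p = 0.004 and 0.0045). Another of the 8, Tmem163, stood just inside the threshold (limma adjusted p = 0.0999). The same list had a median of 0.0027 in the Dnmt3a line, with 0 called by limma and 0 at an unadjusted p under 0.05.

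The stages before and after differed in size from the 8 markers in Dnmt1 CKO. Of 10 progenitor markers, 2 fell, the growth factor receptor Pdgfra (14.1 to 11.4 FPKM, -0.30, limma adjusted p = 0.046) and the transcription factor Sox6 (4.04 to 3.24 FPKM, -0.31, limma adjusted p = 0.053), and the median of the list was -0.12. Of 19 tested markers of myelinating cells, 16 fell, and the median was -1.68. Opalin (8.48 to 1.48 FPKM, -2.45) and the myelin protein gene Mobp (87.2 to 18.6 FPKM, -2.23) had the largest changes, with limma adjusted p of 0.0023 and 0.00032. The 8 markers, at a median of -0.51, thus lay between the 2 lists, a description that was not tested. In the Dnmt3a line the medians were 0.01 for progenitor and 0.06 for myelinating markers, and limma called 0 genes of either list (1 and 2 at an unadjusted p under 0.05). Without Dnmt3a control replicate 2, an alternative for the lists that was chosen after seeing the data, the medians were -0.0026 and 0.14, that of the wider list of the committed stage was 0.06, and 0 genes of any list were called by limma.

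**Figure D4:**
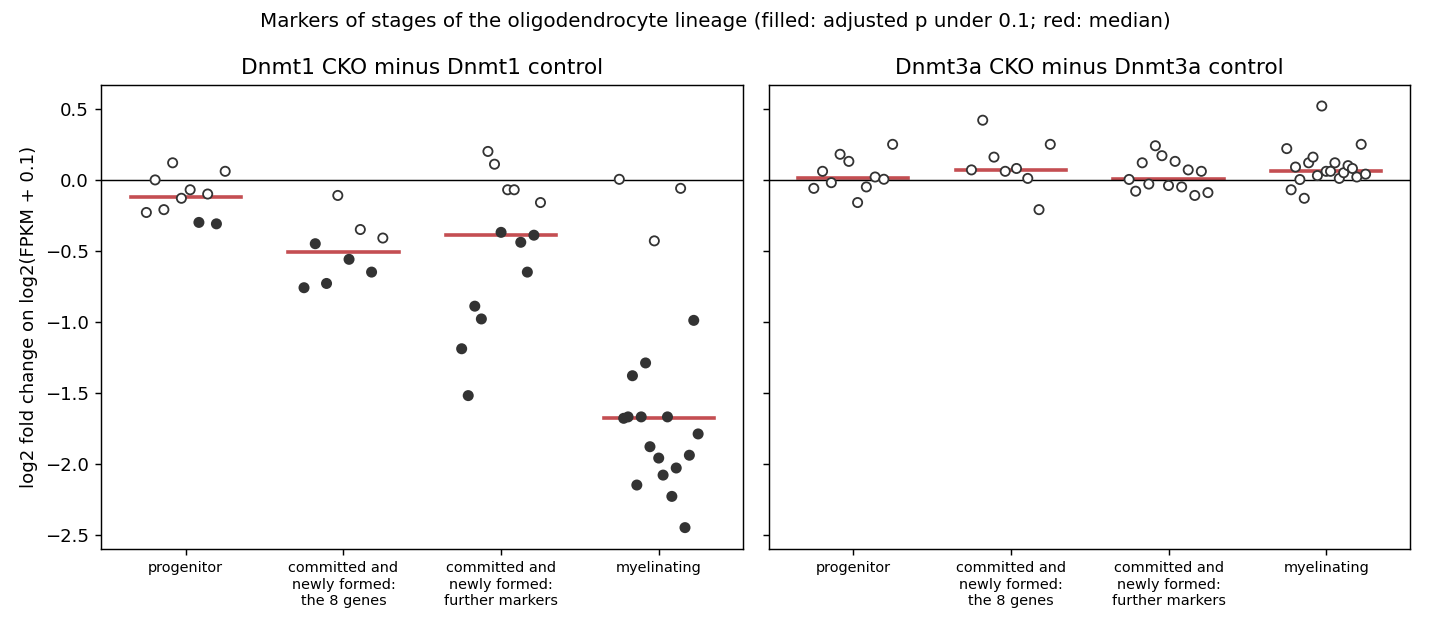
Log2 fold change of each tested marker of 4 lists ordered by stage, in the Dnmt1 line (left) and the Dnmt3a line (right); points are genes, filled where the adjusted p is under 0.1, and red bars are list medians. In the Dnmt1 line the medians are -0.12, -0.51, -0.39 and -1.68, while in the Dnmt3a line all 4 lie between 0.0027 and 0.07.

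Factors of the whole lineage were lower in Dnmt1 CKO as well, where 7 of 8 fell with a median of -0.64. They include Myrf, the transcription factor that turns on myelin genes (6.98 to 3.15 FPKM, -1.12, limma adjusted p = 0.0056), and Sox10 (14.1 to 7.99 FPKM, -0.81, limma adjusted p = 0.0045). Olig1, which carries the cre, went from 46.5 to 20.3 FPKM in Dnmt1 CKO (-1.19, limma adjusted p = 0.0043) and had means of 47.4 and 33.9 FPKM in the Dnmt3a line (-0.49, limma adjusted p = 0.66; -0.45 without Dnmt3a control replicate 2).

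Markers of other cells in the tissue were set beside these results. Of all 14115 rows, limma called 444 in Dnmt1 CKO, and 2113 had an unadjusted p under 0.05. Among 10 neuron markers limma called 0 in Dnmt1 CKO (median 0.02, 0 at an unadjusted p under 0.05), and among 10 astrocyte markers it called 1, Gfap, which rose from 48.6 to 66.5 FPKM (0.45, limma adjusted p = 0.0065). In microglia the complement genes C1qb (0.42, limma adjusted p = 0.01) and C1qa (0.34, limma adjusted p = 0.013) rose, 2 of 8 markers. Their summed level was 136 to 142 FPKM in Dnmt1 control and 148 to 158 FPKM in Dnmt1 CKO. Of 8 endothelial markers, limma called 0 (4 at an unadjusted p under 0.05), with sums of 75.5 to 81.7 FPKM in Dnmt1 control and 68.9 to 73.3 FPKM in Dnmt1 CKO. Sums of 7 choroid plexus markers ranged from 3.29 to 421 FPKM and those of 8 striatal markers from 151 to 314 FPKM over the 12 libraries, and limma called 0 of them in either line, also at an unadjusted p under 0.05. The part of these cells in the levels of the 8 markers was not tested.

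Few genes of the pathways around the 8 markers passed the test, as was so for all rows, where limma called 444 of 14115 in Dnmt1 CKO. In that comparison 2113 rows had an unadjusted p under 0.05. Of 24 tested genes of the BMP pathway around Bmp4, 1 rose in Dnmt1 CKO, the ligand Bmp6 (2.41 to 3.17 FPKM, 0.38, limma adjusted p = 0.07), and 0 fell, with a median of -0.04. At an unadjusted p under 0.05 there were 2 genes of this list. The target genes Id1, Id2, Id3 and Id4 had log2 fold changes of 0.25, -0.0046, -0.05 and -0.08, and the feedback inhibitor Smad7 had means of 4.67 and 3.43 FPKM, without overlap of the groups (-0.44, limma adjusted p = 0.13). Limma called 0 of 19 genes of the Wnt and TCF pathway around Tcf7l2 (median -0.06, 2 at an unadjusted p under 0.05), where the most abundant were Ctnnb1 at 186 and 184 FPKM and Apc at 90.8 and 91 FPKM in Dnmt1 control and CKO. It also called 0 of 13 partners of Fyn (median -0.05, 4 at an unadjusted p under 0.05), among them the inhibitory kinase gene Csk at -0.13 and the integrin gene Itgb1 at -0.22. In the calcium signalling list around Itpr2, 1 of 12 genes fell, the phospholipase Plcb1 (35.6 to 32.6 FPKM, -0.13, limma adjusted p = 0.079).

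Relatives of Neu4, Enpp6, Fyn and Gpr17 did not pass limma's test in either line. The sialidases Neu1, Neu2 and Neu3 had log2 fold changes of 0.09, -0.03 and 0.03 in Dnmt1 CKO, beside -0.65 for Neu4, and 0 of them had an unadjusted p under 0.05. In the Enpp family the 4 tested genes had a median of -0.17 and 2 had an unadjusted p under 0.05, with Enpp2, the most abundant, at 81.2 and 63.7 FPKM (-0.35, limma adjusted p = 0.28), beside -0.73 for Enpp6. The 5 tested Src family kinases other than Fyn had a median of 0.10 (2 at an unadjusted p under 0.05), and the 5 tested cysteinyl leukotriene and P2Y receptors, which resemble Gpr17, one of -0.01 (1 at an unadjusted p under 0.05). Whether a marker differed from its relatives was not tested. In the Dnmt3a line limma called 0 genes of these pathways and families, with 1 gene each of the BMP and Fyn lists at an unadjusted p under 0.05.

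The genes whose profile over the 12 libraries was most like that of each called marker were found by the root mean square difference of centred log2 values. Neu4 was nearest to Tmem2 (0.0641), which is in the wider list of the same stage, then to Fgd3 (0.0717) and Inppl1 (0.0888), where the median over all rows was 0.306. Enpp6 was nearest to Sirt2 (0.0745), Cers2 (0.0919) and Gltp (0.0938), with a median of 0.431. For Bcas1 they were Arpc1b (0.0747), Nfasc (0.0897) and again Gltp (0.0926), with a median of 0.363. Gpr17 was closest to Idi1 (0.0793) and Cyp51 (0.0804), enzymes of sterol synthesis, and to the potassium channel Kcnj10 (0.0915), with a median of 0.26. The nearest to Bmp4 were farther away, Rbm38 (0.135), Syngr2 (0.135) and Zbtb7b (0.139), with a median of 0.297. Among the 8 markers themselves, the nearest pairs were Itpr2 and Fyn (0.121), Gpr17 and Neu4 (0.127) and Gpr17 and Bcas1 (0.137).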

How the data were processed

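RNA-seq of 12 cortices was used. The authors aligned reads to mm10 with TopHat, used Cufflinks for quantification, and deposited 1 FPKM value per library and row, named by symbol; versions and annotation are not given in the sources used here. Groups came from the sample labels, and 302 exact duplicate rows were removed. FPKM were transformed as log2(FPKM + 0.1), so fold changes of low genes are understated. The 14115 rows whose mean reached 0.5 FPKM were tested with limma 3.58.1 in R 4.3.3 (lmFit, eBayes with a trend), adjusted by Benjamini-Hochberg over all rows at 10% FDR. Each CKO was compared with its controls on 6 libraries, and the difference between lines and between controls on 12. Libraries from 3 mice per group were replicates. As FPKM are not counts, no count test or counting interval was computed, and 120 to 136 rows per library are listed at 0 with a mean above 5 FPKM, none of them among the 8 markers. The procedure was tested on simulated data. Lists were described by counts and medians, with up to 4 named genes each: those called with the largest change, or else the most abundant; the genes of the BMP, Fyn and Wnt lists, close relatives and Tmem163 that were named beyond this were chosen after their values were seen. For each marker called in any comparison, the 3 rows nearest in profile were named. Markers and lists were chosen with earlier results of these data known. Positions are from GENCODE M21 on GRCm38 and upstream sequences from RefSeq on GRCm38.p6; those of Gpr17 and Bcas1 were not used here. Python 3.11.15, numpy 2.4.6, pandas 2.3.3 and matplotlib 3.10.9 were used. Alternatives were other pseudocounts, filters, scalings and models, the replicate number as a block, Xist as a covariate, 5% FDR and each library left out in turn.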

Additional observations from a re-analysis of the deposited data

Results flagged for a closer look

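For 5 of the 8 markers the CKO effect differed between the lines, by limma's test of the difference itself over all 12 libraries (Dnmt1 effect minus Dnmt3a effect, log2 scale). Of all rows, 1.83% were called lower in that test. The values were -0.90 for Enpp6 (adjusted p = 0.0065), -0.87 for Bmp4 (adjusted p = 0.0029), -0.83 for Bcas1 (adjusted p = 0.0008), -0.64 for Gpr17 (adjusted p = 0.0022) and -0.44 for Neu4 (adjusted p = 0.011). In all 5 genes each Dnmt1 CKO value was below the other 9 libraries, which held for 5.46% of all rows. The 5 were picked by a test on these same values, so their separation is not further support. Whether a single library stood apart from its group was not tested, since the groups hold 3 libraries.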

How the results depend on the processing

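The number of markers called in the Dnmt1 line was 5 and ranged from 3 to 5 when 1 library was left out. It was 3 without Dnmt1 control replicate 2, Dnmt1 CKO replicate 1 or Dnmt1 CKO replicate 3, where Gpr17, Bcas1 and Neu4 were called. Calls over all rows fell as well in these fits, to 206, 199 and 216, against 444 with all libraries. The replicate block also left Gpr17, Bcas1 and Neu4, with Enpp6 at -0.73 (limma adjusted p = 0.12) and Bmp4 at -0.45 (limma adjusted p = 0.18). With the block, 162 rows were called in all, against 444. Same-numbered libraries of a line had correlations of their deviations, taken over all rows, from -0.0792 to 0.0352. A litter effect on some genes need not show in such a correlation, so whether the numbers pair the samples was not settled. The number of markers called was 4 without Dnmt1 CKO replicate 2, 5 with Xist as a covariate or at 5% FDR, and 6 in the 4 settings in which Itpr2 passed. Xist itself stood at 1.69 to 1.85 FPKM in Dnmt1 CKO, and the only Dnmt1-line library with high Xist was a control. The Xist setting therefore cannot separate sex from the CKO in this line. Without that control, Dnmt1 control replicate 3, every library left in the line had high Ddx3y. The same 5 markers were then called, with limma adjusted p from 0.021 for Bcas1 to 0.061 for Bmp4. A part of sex in the changes was not tested further. The counts of markers called for the difference between the lines, in the Dnmt3a line and between controls (5, 0 and 0) were the same in every alternative that was run. Values near 0 changed sign: Itpr2 in the Dnmt3a line with libraries rescaled by median ratio (-2.8e-05) and on leaving out 1 library (-0.05 to 0.10). Between the controls, Bcas1 (-0.02 to 0.08) and Tcf7l2 (-0.16 to 0.13) did so on leaving out 1 library, and Fyn by median ratio (0.0022), quantile normalization (0.01) and leaving out 1 library (-0.07 to 0.03). Over all rows of the Dnmt3a line 17 were called with no filter on low values, against 2. The cause of these changes was not tested. As the depth is unknown, the counting error behind each value could not be given.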
